A study of Drosophila melanogaster with 24 samples.

Results

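The cytoplasmic ribosomal protein genes of Drosophila melanogaster were followed across sex, line and selection group in whole flies from an artificial selection experiment on aggressive behavior. Members were all probe sets that the platform annotation assigns to a single gene whose symbol begins with RpL or RpS, and the mitochondrial mRp genes were set aside for comparison. This rule gave 47 of 18769 probe sets on the Drosophila GeneChip 2.0, and they covered 41 genes, 25 of the large and 16 of the small subunit, among 11982 genes with a probe set of their own. The RefSeq annotation lists 92 RpL and RpS genes, and the other 51 had no probe set of their own among the members and were not analysed here. The rule used no measured value.

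Selection on male aggression had given the high lines H1 and H2 and the low lines L1 and L2, and the control lines C1 and C2 were propagated without selection. All 6 lines came from one base population of wild-derived flies, and the design text places the collection at generation 28, whereas the study's methods name an earlier generation. Each of the 24 arrays held RNA of a pool of whole virgin flies of 1 sex, 3 to 7 days old and deprived of food for a short time, with 2 arrays for each combination of line and sex. Thus each selection group held 8 arrays from 2 lines, and only males had been scored and chosen as parents, whereas both sexes were measured. The 2 arrays of a line and sex came from separate pools of flies, and whether the pools came from separate cultures is not given in the sources used here, so p-values measure the spread between pools within a line.

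Ribosomal proteins assemble with ribosomal RNA into the subunits that translate messenger RNA in every cell. Most are encoded in the fly by a single strongly expressed gene, and loss of a gene copy often gives the Minute phenotype of slow development and short bristles. Some have duplicate genes, and several of these duplicates are known for expression in the germ line, such as RpL22-like in the testis and RpS5b in the ovary. A further kind, here RpLP0-like, RpL7-like and RpL24-like, resembles yeast factors that help to assemble the large subunit without remaining part of the mature ribosome. Of the 41 genes, 12 belonged to a list of such duplicate and -like genes, called the paralog list below, and 29 did not. By the RefSeq annotation none of these 12 lay on the X chromosome, and 3 of the other 29 did (RpL17, RpL37-1 and RpS28b).

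Signal is the expression value of a probe set, an intensity that is comparable between arrays but not between probe sets. Each array had been scaled to nearly the same trimmed mean (497.4 to 498.4 in males and 497.1 to 498.4 in females), while the median over all probe sets was 124.8 to 143.4 in males and 71.4 to 118.9 in females. Labelled sexes were borne out by the marker genes: the summed Signal of 22 testis probe sets was 68652 to 97408 in males and 798 to 3353 in females, and that of 16 ovary probe sets was 869.6 to 1050.9 in males and 83012 to 138141 in females. The array of C1 females, replicate 1, held the highest female testis sum, and its accessory gland sum over 11 probe sets was 5380, against 406.6 on the next highest female array. The array of L1 females, replicate 1, had the lowest ovary sum and the highest median Signal among females (118.9).

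The genes outside the paralog list had slightly lower Signals in males than in females. On the log2(Signal + 16) scale the difference, male minus female averaged over the 6 lines, was below 0 for all 29, between -0.59 and -0.14, with a median of -0.37 against -0.17 for all 11928 tested probe sets. A probe set was called for sex at a Benjamini-Hochberg adjusted p under 0.001 in limma, and 26 of the 29 were called lower in males, beside 44.5% of all tested probe sets. None of the 29 was called higher in males, beside 30.0% of all tested probe sets. At an unadjusted p under 0.05 none was higher in males either, since all 29 differences were negative. The ranges of the 12 male and 12 female arrays overlapped for all 29, whereas they did not overlap for 49.6% of all tested probe sets.

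RpL29, a large subunit protein, had the most negative difference among these 29. Its Signals ran between 12160 and 15865 in males, with a median of 12764, and between 15634 and 23657 in females, with a median of 19970. The sexes overlapped only through the array of H2 females, replicate 2, and the difference was -0.59 ± 0.05 (SE, 12 arrays per sex; adjusted p = 4.77e-08). RpLP0, the base of the ribosomal stalk that recruits translation factors, had Signals of 15507 to 18720 in males and 18660 to 28155 in females, and differed by -0.52 ± 0.06. The other stalk proteins differed by -0.41 for RpLP1 and -0.31 for RpLP2. RpL17, RpS7 and RpS30 differed by -0.52, -0.51 and -0.47, and completed the 10 most negative differences together with 5 genes of the paralog list.

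RpL32, a frequent reference gene for fly transcript measurements, had Signals of 16167 to 19228 in males and 17184 to 28288 in females, and differed by -0.35 ± 0.06 (adjusted p = 8.16e-05). RpL40 and RpS27A, which are made as fusions with ubiquitin, differed by -0.37 and -0.35. RpS12, which marks slow-growing cells in cell competition, differed by -0.41. RpS18 and RpS20, both of the small subunit, differed by -0.38 and -0.39. RpL41 was the gene nearest to 0, with Signals of 20364 to 27685 in males and 18428 to 31060 in females, and its difference of -0.14 ± 0.07 was not called (adjusted p = 0.0609). RpL15 (-0.25, adjusted p = 0.00106) and RpL37A (-0.22, adjusted p = 0.00266) were also not called.

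This shift depended on how the arrays were scaled. Setting every array to one median moved the median of all tested probe sets to -0.82 and that of the 29 genes to -1.06, and quantile normalisation moved them to -0.25 and -0.15. Relative to all tested probe sets the 29 genes were therefore lower in males under the deposited scaling and under one median, but higher under quantile normalisation. After quantile normalisation RpL37A and RpL41 lay at 0.00 and 0.04. There 16 of the 29 were called lower in males, beside 5597 of all 11928 tested probe sets. The share of all sex calls that were higher in females was 59.7% under the deposited scaling, 79% under one median and 61.9% after quantile normalisation. With line means in place of arrays, 6 of the 29 kept their call at the same threshold and 28 had an adjusted p under 0.05. The share of all tested probe sets called with line means is not given here.

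All 12 genes of the paralog list were called for sex, beside 74.4% of all tested probe sets in either direction, with 7 higher in males and 5 lower. For none did the ranges of the male and female arrays overlap, beside 49.6% of all tested probe sets. The filter kept probe sets whose 12th-highest Signal was at least 50, and each sex had 12 arrays. Female Signals stayed under 50 for RpL10Aa, RpS28-like and RpS10a, and reached 57.3 for RpL22-like, 69.3 for RpS19b, 83.5 for RpS28a and 84.6 for RpL37-2. For all 7 genes higher in males every male Signal was above 50, and the 12th-highest Signal was the lowest male one. Each also had female Signals under 50, so the female arrays alone would not have met the filter. The calls and lack of overlap of these 7 are therefore not independent of the filter. Without the filter all 12 were also called. These calls and directions held under both other scalings and with each array or line left out. The whole family had 8 of 47 probe sets called higher in males (17.0%, beside 30.0% of all tested probe sets) and 34 called lower (72.3%, beside 44.5%). The plot of the sex difference per gene shows the 29 other genes as a narrow block between both groups of paralogs. In whole flies, fewer cells of a type and less RNA per cell cannot be told apart, and the part of the sex organs, whose markers separated the sexes as given above, was not tested.

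**Figure D1:**
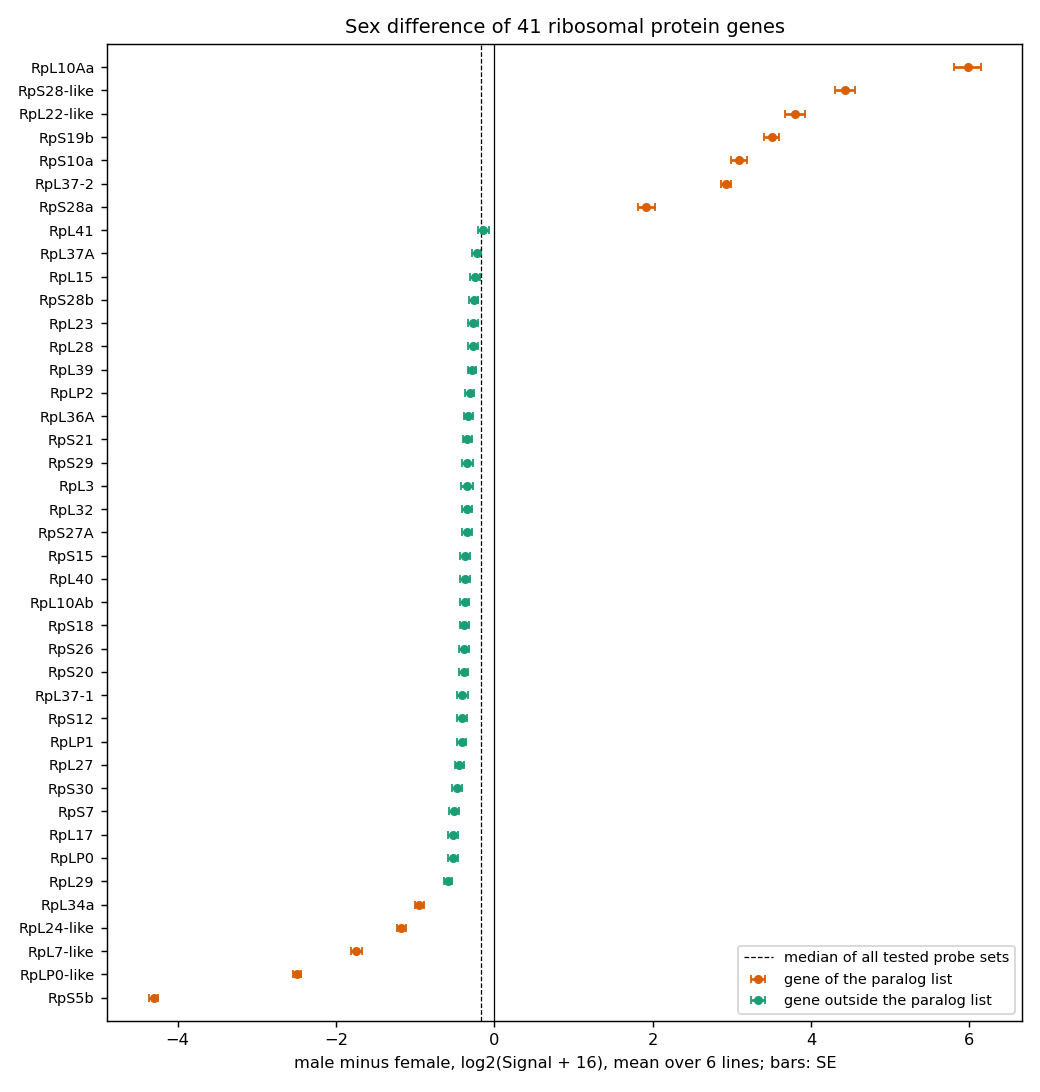
Male minus female difference of log2(Signal + 16), averaged over 6 lines, for each of 41 ribosomal protein genes, with its SE as a bar; the dashed line is the median of all tested probe sets. RpL10Aa lies at 5.98 and RpS5b at -4.30, and the 29 genes outside the paralog list lie between -0.59 and -0.14.

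RpL10Aa is a duplicate of RpL10Ab, the gene of a protein at the exit side of the ribosome known as the L1 stalk. Its Signal was 1198 to 2332 in males, with a median of 1793, and 3.4 to 41.4 in females, with a median of 9.3. Every male array stood far above every female array, and the difference was 5.98 ± 0.17 (SE), or 63.0-fold (adjusted p = 1.01e-14). On 8 of the 12 female arrays the value lay at or below the lower quartile of all Signals on that array (10.6 to 28.1 over the female arrays), where a Signal carries little information. It lay above the quartile on replicate 1 of H2, L1, L2 and C1, with 41.4 in C1 the highest. The added pseudocount means that fold changes on this scale understate the difference of the dim genes.

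RpS28-like and RpS28a are duplicates of RpS28b, a small subunit protein. RpS28-like had Signals of 328.2 to 655.2 in males and 1.9 to 27.5 in females, and differed by 4.43 ± 0.13 (21.5-fold). Its lowest male arrays were both of line C2, at 328.2 and 376.0. RpS28a had Signals of 159.5 to 333.4 in males and 24.5 to 83.5 in females, and differed by 1.92 ± 0.11 (3.79-fold), the smallest difference among the 7.

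RpL22-like, the testis-enriched duplicate of RpL22, had Signals of 447.1 to 712.4 in males and 3.9 to 57.3 in females. It differed by 3.80 ± 0.13 (13.9-fold), and both its lowest male arrays, 447.1 and 484.9, and its lowest female array, 3.9, were of line C2. RpS19b, a duplicate of RpS19a, had Signals of 400.1 to 806.0 in males and 25.3 to 69.3 in females, and differed by 3.50 ± 0.09 (11.3-fold). The lowest male arrays were again those of C2, at 400.1 and 532.5. RpS10a, a duplicate of RpS10b, had Signals of 159.5 to 291.7 in males and 1.5 to 49.6 in females and differed by 3.09 ± 0.10 (8.51-fold). RpL37-2, a duplicate of RpL37-1, had Signals of 290.4 to 708.0 in males and 21.1 to 84.6 in females and differed by 2.92 ± 0.06 (7.59-fold).

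**Figure D2:**
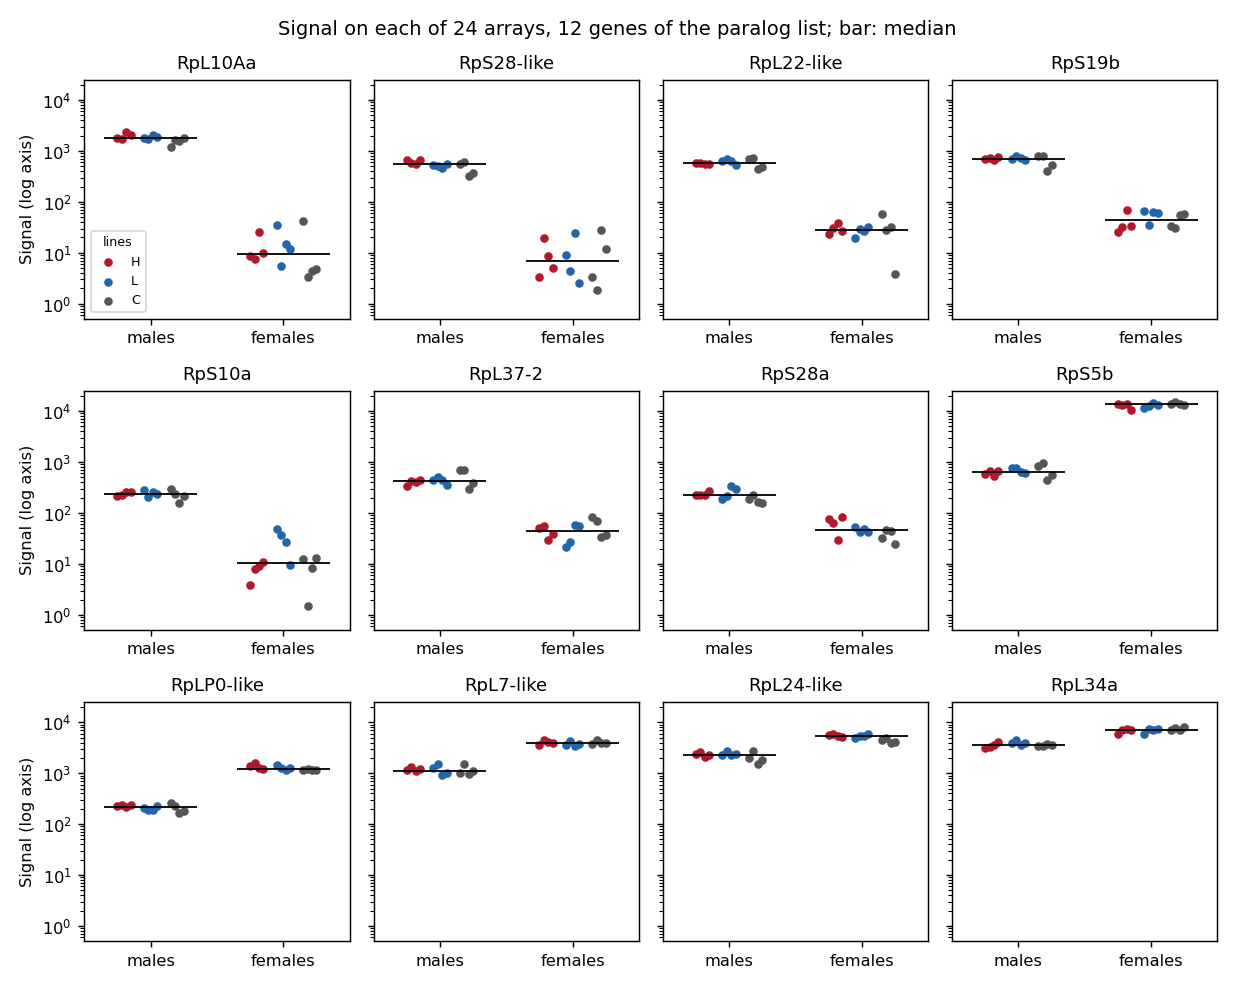
Signal (log axis) of 12 genes of the paralog list on each of 24 arrays, males left and females right, coloured by selection group, with a bar at the median of 12 arrays. Males and females do not overlap for any of the 12 genes, with RpL10Aa at 1198 to 2332 in males and 3.4 to 41.4 in females and RpS5b at 436.9 to 939.0 in males and 10464 to 15309 in females. The sexes do not overlap for 49.6% of all tested probe sets.

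RpS5b, the ovary-enriched duplicate of RpS5a, had the most negative difference of the family. Its Signal was 436.9 to 939.0 in males, with a median of 647.4, and 10464 to 15309 in females, with a median of 13552. The difference was -4.30 ± 0.06 (SE), with females 19.7-fold higher (adjusted p = 7.24e-18). The highest male arrays were those of line C1, at 856.2 and 939.0, and the lowest was of line C2.

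The 3 -like genes that resemble assembly factors followed. RpLP0-like, similar to the yeast factor Mrt4, had Signals of 168.2 to 264.8 in males and 1140 to 1613 in females, a difference of -2.49 ± 0.05. RpL7-like, similar to yeast Rlp7, had Signals of 934.9 to 1501 in males and 3475 to 4564 in females, a difference of -1.74 ± 0.07. RpL24-like, similar to yeast Rlp24, had Signals of 1493 to 2722 in males and 3926 to 6015 in females, a difference of -1.18 ± 0.06. Female Signals of these 3 were 5.62-fold, 3.35-fold and 2.26-fold higher on this scale. RpL34a, a duplicate of RpL34b, had Signals of 3124 to 4564 in males and 5817 to 7993 in females, and its difference of -0.95 ± 0.06 was the smallest among the 12.

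Paralog and partner were also compared within each array, as the difference of their log2(Signal + 16). A common scale factor cancels from such a ratio only where both Signals are well above the pseudocount. Of 14 listed pairs, 5 had a probe set for both genes, and the sex difference of the log2 ratio was taken in each of the 6 lines. RpL10Aa over RpL10Ab was higher in males by 6.35 ± 0.37 (SD, 6 lines), and the lines ran from 5.93 to 6.83. With pseudocounts of 64 and 1 in place of 16 the value was 4.94 and 7.62. For RpL10Aa 8 of the 12 female Signals were at or below the lower quartile of their array, so the order of its lines was not read. RpS28-like over RpS28b was higher in males by 4.69 ± 0.53, with 3.25 and 6.22 at the same 2 pseudocounts. Its lines ran from 3.81 to 5.41, but 8 of its 12 female Signals were at or below the lower quartile of their array, so the order of the lines was not read. RpL37-2 over RpL37-1 was higher by 3.33 ± 0.29 and RpS28a over RpS28b by 2.18 ± 0.34. RpLP0-like over RpLP0 was lower in males by a difference of -1.97 ± 0.23, in 6 of 6 lines. For each of the 5 pairs all 6 lines shared the direction, and the two-sided exact sign-flip permutation p was 0.03125, before and after adjustment over the 5 pairs, which is the smallest that 6 lines allow. The sexes did not overlap for any of these paralogs, and their partners differed by only -0.52 to -0.26. The shared direction therefore followed from the sex differences given above, and this p is not separate support for them. For the paralogs higher in males the limit of the filter applies here too.

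**Figure D3:**
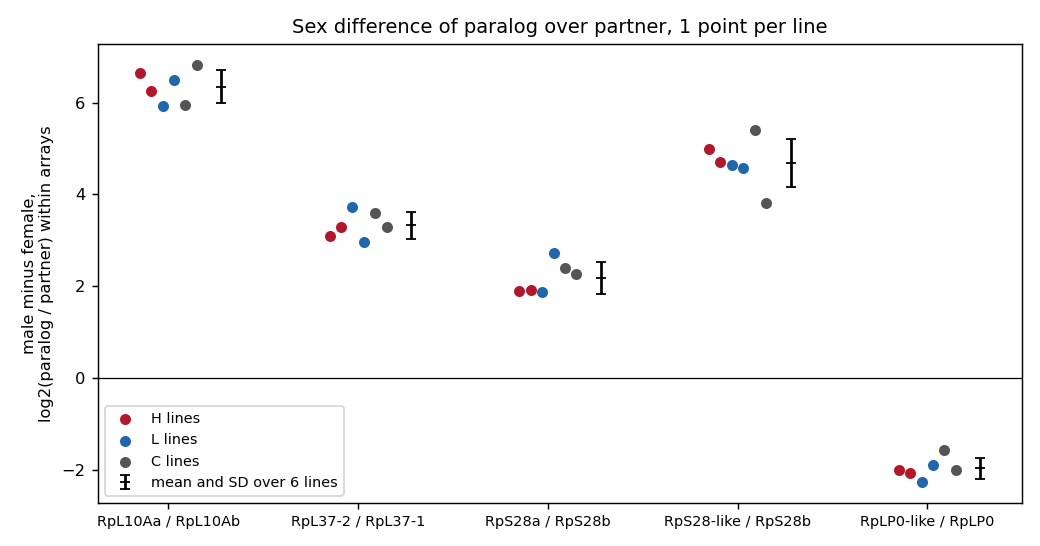
Male minus female difference of the log2 ratio of each paralog to its partner, 1 point per line coloured by selection group, with the mean and SD over 6 lines. The 4 pairs on the left lie above 0 in all 6 lines and RpLP0-like over RpLP0 lies below 0 in all 6.

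Probe sets of the same gene did not always agree. RpS29 had 3 probe sets: the bright ones differed by -0.34 and -0.28, and a dim one, with Signals of 65.2 to 154.2 in males and 1.9 to 37.8 in females, differed by 2.12 ± 0.14 and was the 8th called higher in males. This dim probe set too passed the filter only through its male arrays. RpS7 differed by -0.51 on its bright probe set, and by 0.04 ± 0.11 (adjusted p = 0.711) on a dim one with Signals of 34.6 to 110.2 in males and 42.1 to 74.6 in females. RpL3 differed by -0.34 on its bright probe set, and by -2.06 and -0.96 on dimmer ones, the first with Signals of 225.0 to 379.3 in males and 878 to 1652 in females. RpS30 differed by -0.47 on its bright probe set and by -1.66 on a dimmer one. Whether these probe sets measure other transcripts was not tested, and each gene is represented above by its probe set with the highest mean Signal.

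The 29 genes outside the paralog list were summarised on each array by their median. This median Signal was 15608 to 18720 in males, with a median of 17169, and 16887 to 26874 in females, with a median of 22442. The lowest female arrays were replicate 2 of H2 (16887) and replicate 1 of L1 (17983), and both lay within the male range, whereas the other 10 female arrays lay above every male array. These 2 arrays also had the lowest 99th percentile of Signal over all probe sets outside the family among females, 10714 and 9805, and their part in the lower values was not tested. The median sex difference of the 29 genes was -0.47 in H1, -0.11 in H2, -0.16 in L1, -0.42 in L2, -0.55 in C1 and -0.48 in C2, so that the smallest differences fell in the lines of these 2 arrays. Leaving both out moved the median over the 29 genes to -0.43, with 28 of 29 called. The share of all tested probe sets called without these arrays is not given here.

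**Figure D4:**
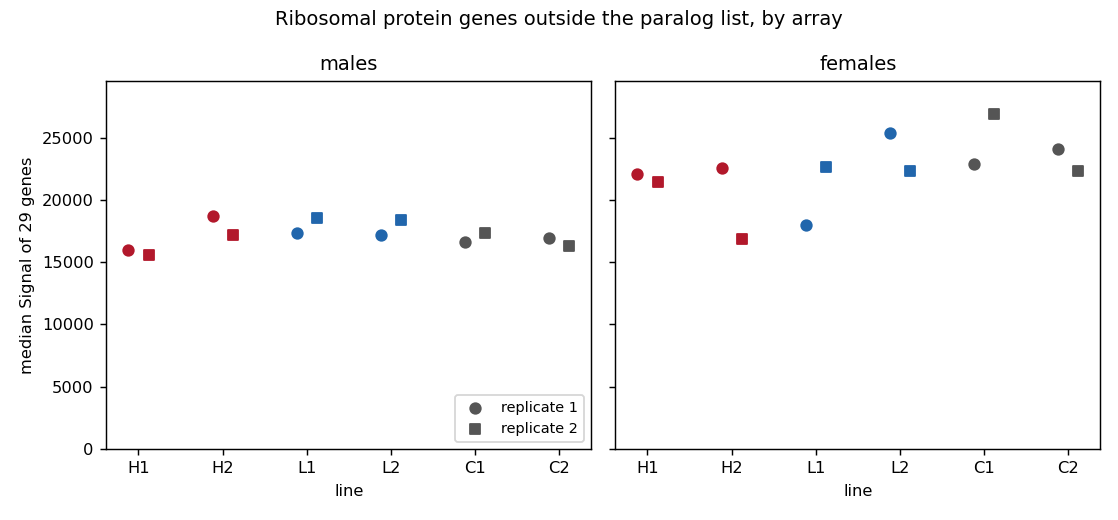
Median Signal of the 29 genes outside the paralog list on each array, by line, males left and females right, with circles for replicate 1 and squares for replicate 2. Males lie between 15608 and 18720, and only replicate 2 of H2 and replicate 1 of L1 among females fall into that range.

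The 29 genes outside the paralog list varied less between lines than all tested probe sets did at the median, and the paralog list varied more. Mean Signals were 14990 to 24339 for the 29 genes and 126.8 to 6995 for the paralog list. The comparison of spread was not matched for Signal level, and the part of that level was not tested. The SD over the 6 line means of log2(Signal + 16) had a median of 0.10 in males and 0.15 in females for the 29 genes, and 0.22 in males and 0.28 in females for the 12 genes of the paralog list, against 0.18 in males and 0.19 in females for all tested probe sets. At an adjusted p under 0.001, 1 of 47 probe sets was called for line, beside 6.56% of all tested probe sets. This was RpL37-2. At an unadjusted p under 0.05 there were 6 of 47, beside 41.4% of all tested probe sets, and all 6 were of the paralog list (6 of its 12 genes).

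RpL37-2 stood out through line C1. Male Signals were 340.9 and 419.4 in H1, 413.6 and 438.1 in H2, 454.3 and 513.8 in L1, 449.1 and 353.5 in L2, 708.0 and 698.3 in C1, and 290.4 and 385.5 in C2. Female Signals were 51.1 and 54.4 in H1, 29.1 and 37.9 in H2, 21.1 and 26.7 in L1, 57.4 and 56.4 in L2, 84.6 and 70.4 in C1, and 34.2 and 37.3 in C2. Both C1 arrays were above every other array of their sex, and the adjusted p for line was 0.000143. Without line C1 it was 0.0925, without C1 male replicate 1 it was 0.00102, without C1 female replicate 1 it was 0.00115, and after quantile normalisation it was 0.0033, so that the call ended in each of these cases.

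RpL24-like (adjusted p = 0.00507), RpS10a (adjusted p = 0.0268), RpS5b (adjusted p = 0.028) and RpLP0-like (adjusted p = 0.0652) had the next lowest p for line and were not called. No member was called by limma for a sex difference that depended on line, beside 0.0252% of all tested probe sets. At an unadjusted p under 0.05 there were 5 (RpL37-2, RpS19b, RpS10a, RpS5b and RpS28-like), beside 12.4%.

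Selection for aggression left the 29 genes outside the paralog list without a call in any comparison, beside 3.41% to 10.6% of all tested probe sets. Median differences were -0.08 for H minus L, -0.11 for H minus C and -0.03 for L minus C, against -0.02, -0.03 and -0.01 for all tested probe sets. In females, H minus C was negative for 29 of 29 with a median of -0.23, and L minus C was negative for 29 of 29 with a median of -0.15. The medians over all tested probe sets were -0.0011 and 0.0096, with 6001 and 5712 of 11928 below 0. In males, H minus C was above 0 for 17 of 29 with a median of 0.0050, and L minus C was above 0 for 29 of 29 with a median of 0.08, against -0.04 and -0.02 for all tested probe sets. Of all 11928 tested probe sets 5016 and 5608 were above 0 in these male comparisons. None of the 29 was called in any of these 4 comparisons within a sex, beside 3.41% to 6.35% of all tested probe sets. A count of 0 of 29 is near these shares. The female medians moved with single arrays and lines. Without the 2 female arrays named above they were -0.11 and -0.08. Without replicate 1 of the H2 females H minus C was -0.34, with 3 of the 29 called, and the share over all tested probe sets is not given for this setting. Over the lines, L minus C was -0.02 without L1 and -0.28 without L2. After quantile normalisation the female medians were -0.0038 and 0.0016. The median Signal of the 29 genes on female arrays was 16887 to 22544 in H, 17983 to 25401 in L and 22305 to 26874 in C, and the groups overlapped.

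A selection contrast was called at an adjusted p under 0.05. H minus L had 1 of 47 members called, beside 9.98% of all tested probe sets, H minus C had 2, beside 10.6%, and L minus C had 2, beside 8.1%. H minus C and L minus C share the control arrays. Within males no member was called in these 3 comparisons, beside 4.65%, 6.35% and 3.41% of all tested probe sets. Within females the counts were 1, 0 and 1, beside 5.78%, 4.22% and 3.97%. Under the rule of 2 steps used in the study's methods, which asks for a line or line-by-sex term at an adjusted p under 0.001 before the contrast is read at an unadjusted p under 0.05, the counts were 0, 1 and 1, beside 4.8%, 4.65% and 4.54%, and the member was RpL37-2 both times. With line means in place of arrays, or with line as a random block, the count was 0 in all 3 comparisons.

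RpL24-like was higher in H than in C by 0.31 ± 0.07 (SE; adjusted p = 0.00932) and higher in L than in C by 0.30 ± 0.07 (adjusted p = 0.0149). Male Signals were 2110 to 2569 in H, 2254 to 2695 in L and 1493 to 2722 in C, and female Signals were 5245 to 6015 in H, 4868 to 5895 in L and 3926 to 4894 in C. In males the groups overlapped, with C2 lowest at 1493 and 1799, and in females every H array lay above every C array. Without line C2 the differences were 0.13 (adjusted p = 0.441) for H minus C and 0.11 (adjusted p = 0.516) for L minus C. The first was also not called without H1 (adjusted p = 0.161), and the second without L1 (adjusted p = 0.0556), without L2 (adjusted p = 0.055) or with arrays set to one median (adjusted p = 0.253).

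RpS10a was lower in H than in L by a difference of -0.46 ± 0.13 (adjusted p = 0.0334) and higher in L than in C by 0.50 ± 0.13 (adjusted p = 0.0238). Male Signals were 212.0 to 263.6 in H, 205.9 to 284.6 in L and 159.5 to 291.7 in C. Female Signals were 3.9, 8.1, 9.3 and 11.0 in H, 49.6, 36.5, 26.5 and 9.4 in L, and 12.5, 1.5, 8.4 and 13.2 in C. The groups overlapped in males, and in females both L1 arrays and replicate 1 of L2 were above the others. These values were dim: 7 of the 12 female Signals were at or below the lower quartile of their array, and the highest (49.6) came from replicate 1 of L1, whose lower quartile of 28.1 compares with 10.6 to 16.8 on the other 11 female arrays. Neither of the calls over both sexes held without this array. For H minus L the difference was -0.04 within males (adjusted p = 0.968) and -0.88 ± 0.18 within females (adjusted p = 0.0101). For L minus C it was 0.15 within males (adjusted p = 0.765) and 0.85 ± 0.18 within females (adjusted p = 0.0142).

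The calls of RpS10a depended on single arrays. H minus L was not called without any one of 11 arrays: replicate 1 of H1, H2, L1 and L2 in either sex, and replicate 2 of the males of H1, H2 and L2. L minus C was not called without any one of 7: replicate 1 of L1, L2 and C2 in either sex, and replicate 2 of the C1 males. Over all single arrays left out, the adjusted p ran from 0.00998 to 0.0867 for H minus L and from 0.00759 to 0.0673 for L minus C. Without line L1 the differences were -0.26 (adjusted p = 0.378) and 0.30 (adjusted p = 0.295). H minus L was also not called without H1 or H2 (adjusted p = 0.29 and 0.0527), under one median (adjusted p = 0.0569) or after quantile normalisation (adjusted p = 0.0976), nor L minus C without C2 (adjusted p = 0.126). Within females, H minus L was not called without line H1 or L1 (adjusted p = 0.124 and 0.295). L minus C in females was not called without line C1 or L1 (adjusted p = 0.0573 and 0.389) or without replicate 1 of the L1, L2 or C2 females (adjusted p up to 0.0684).

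RpL37-2 was lower in H than in C by a difference of -0.26 ± 0.08 (adjusted p = 0.0441), while L minus C, at -0.25 ± 0.08, was not called (adjusted p = 0.0586). Without line C1 the difference of H and C turned to 0.21 (adjusted p = 0.185), and without line C2 it was -0.73 (adjusted p = 0.000404). It was not called under one median (adjusted p = 0.28), after quantile normalisation (adjusted p = 0.437) or without H1, H2 or L2 (adjusted p = 0.0535, 0.3 and 0.0518), and leaving out 16 of the 24 arrays one at a time ended the call (adjusted p between 0.0219 and 0.112 over all 24). The arrays whose absence did not end it were replicate 1 of the C2 and L2 males and the L1 females, and replicate 2 of the H1 and L2 males and the H2, L1 and C1 females.

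**Figure D5:**
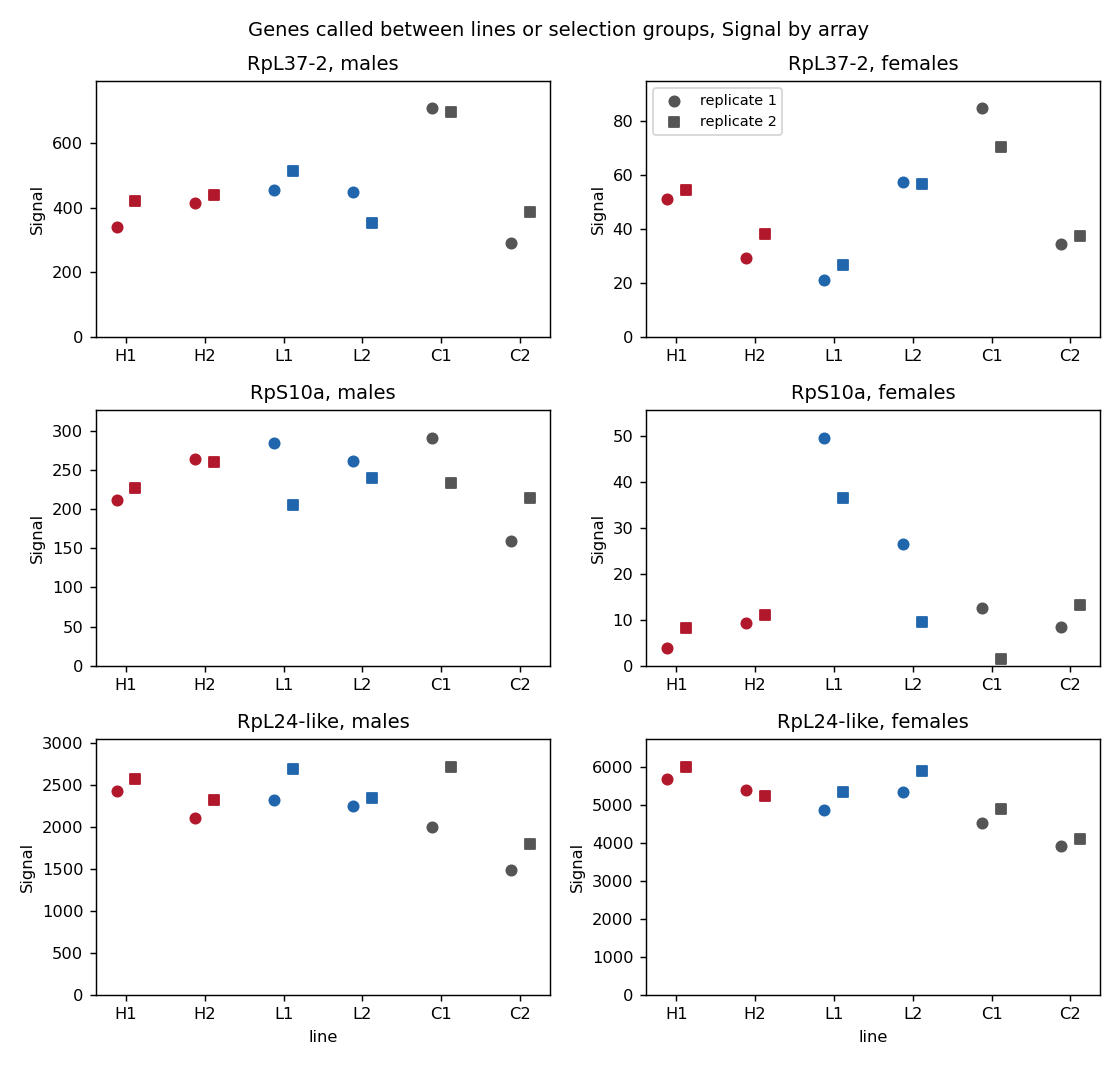
Signal of RpL37-2, RpS10a and RpL24-like on each array by line, males left and females right, with circles for replicate 1 and squares for replicate 2. RpL37-2 was highest in C1 in both sexes (708.0 and 698.3 in males), RpS10a was highest in L1 among females only (49.6 and 36.5), and RpL24-like was lowest in C2.

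Sex differences of the family did not pass the test for dependence on selection group. No member was called by limma in the 3 comparisons of the sex difference, beside 0.151% of all tested probe sets for H minus L, 0.394% for H minus C and 0.0755% for L minus C. At an unadjusted p under 0.05 the counts were 1, 0 and 2, beside 9.52%, 12.3% and 8.29%. The member of the first comparison was RpS10a (0.84 ± 0.25, adjusted p = 0.287), and those of the last were RpS10a (-0.69 ± 0.25, adjusted p = 0.447) and RpL17 (0.37 ± 0.16, adjusted p = 0.591). The sex difference of RpL10Aa was 6.13 in H, 5.91 in L and 5.89 in C, and that of RpS5b was -4.34 in H, -4.19 in L and -4.38 in C. For RpL10Aa 8 of the 12 female Signals were at or below the lower quartile of their array, so the order of its groups was not read.

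Other genes of the translation machinery give the setting of these sex differences, with thresholds as above. Of all tested probe sets 44.5% were called lower in males and 30.0% higher, and their median difference was -0.17. All 7 RNA polymerase I genes tested, which transcribe ribosomal RNA, were lower in males, with a median of -2.09. Of 25 ribosome biogenesis genes 24 were lower in males and none was higher, with a median of -2.39, among them the pseudouridine synthase Nop60B (-4.08) and the snoRNP protein Nop56 (-3.37). Of 69 mitochondrial ribosomal protein genes 68 were lower in males and none was higher, with a median of -0.86. The 29 cytoplasmic genes outside the paralog list had a median of -0.37, at mean Signals of 14990 to 24339. The lists were not matched for Signal level, so the sizes of these medians were not compared.

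Among translation factors, 28 of 37 initiation factor genes were lower in males and 9 were higher, beside 44.5% and 30.0% of all tested probe sets, and their median difference was -0.73. The 3 with the largest positive differences were the cap-binding isoforms eIF4E5 (6.35), eIF4E4 (5.94) and eIF4E3 (5.72), all members of a duplicated family. Of 6 elongation and release factor genes 5 were lower in males and eEF1alpha2 was higher (0.43), beside the same shares.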

How the data were processed

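Total RNA of 24 pools of flies was hybridised to 1-colour arrays, with 2 pools per line and sex. The authors computed the deposited Signal, a linear intensity per probe set, from perfect-match and mismatch probes with the MAS5 algorithm of Affymetrix, each array being scaled; detection calls were not used here. The number of arrays limits the precision.

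The log2 of Signal plus a pseudocount of 16 was fitted by limma 3.58.1 (R 4.3.3), which estimated a mean per line and sex, with moderated variances and Benjamini-Hochberg adjustment over all probe sets tested. Probe sets whose 12th-highest Signal was at least 50 were tested, in place of the methods' filter on detection calls: 11928 were kept, all 47 members among them, and 6841 were left out. Line pairs of paralogs were compared by an exact sign-flip permutation test. Deviations of same-numbered replicates from their group means correlated at -0.25 to 0.21 over 66 pairs of groups (median 0.05, 16 above 0.1). Samples were not paired by replicate number in the main fit. Whether same-numbered replicates shared a batch is not given in the labels, and these correlations cannot decide it. Alternatives covered the filter, pseudocount, scaling, threshold, line means, line as a random block, a replicate block, an exchange of labels of male replicate 1 of H1 and H2 (1 title is ambiguous), and single arrays or lines left out. Scripts were tested on simulated data.

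Named were all genes of the paralog list and their partners; those called higher in males; the 10 most negative sex differences called; the 5 brightest and 5 dimmest; those called by line or the 5 lowest p; the 3 largest per selection contrast; and genes with probe sets of opposite sign. RpL15, RpL37A, RpL32, RpL40, RpS12, RpLP2 and RpL3 were named after their values were seen. The members and lists were chosen with earlier results of these data known. Gene symbols come from the platform annotation, updated through RefSeq: of 18769 probe sets, 13647 carry the symbol of 1 gene, 402 of several and 4720 of none, and 3 RpL or RpS probe sets that name several genes were left out.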

Additional observations from a re-analysis of the deposited data

Results flagged for a closer look

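In 78 groups of 4 arrays (each gene of the paralog list and the median of the other 29 genes, by selection group and sex), 6 held an array whose gap to its nearest neighbour took an unusually large share of the group's range. Chance alone marks about 1 in 20 such groups. The median Signal of the 29 genes was 16887 on replicate 2 of the H2 females, and 21476 to 22544 on the other 3 H female arrays. RpL10Aa had a Signal of 25.5 on replicate 1 of the H2 females, and 7.4 to 9.8 on the other H female arrays. RpL10Aa also had a Signal of 41.4 on replicate 1 of the C1 females, and 3.4 to 4.9 on the other C female arrays. This array held the highest female sums of accessory gland and testis markers. RpL22-like (57.3) and RpL37-2 (84.6) were also highest among females there. RpS28-like (3.3), RpS19b (33.5), RpS10a (12.5) and RpS28a (32.6) were not. A link to the marker sums was not tested. RpL34a had a Signal of 5817 on replicate 1 of the L1 females, and 7208 to 7439 on the other L female arrays. RpS19b had a Signal of 35.5 on replicate 2 of the L1 females, and 61.0 to 66.0 on the other L female arrays. RpS28a had a Signal of 268.2 on replicate 2 of the H2 males, and 223.3 to 227.8 on the other H male arrays.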

How the results depend on the processing

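The sex calls and directions of the paralog list's genes kept under all alternatives that tested them, and the 5 ratios of paralog to partner kept their direction. Called higher in males were 8 probe sets, and 5 where the 12th-highest Signal had to be at least 200; called lower in males were 34, and 14 with line means. The median sex difference over the members was -0.35, with -1.04 under one median and -0.15 after quantile normalisation. The count for line was 1, with 0 after quantile normalisation, 2 on the linear Signal, 2 with a replicate block, 4 at a threshold of 0.05, 0 without C1 and L1 female replicate 1 together, and 0 to 1 with single arrays or lines left out. H minus L had 1 call, and 0 without a filter, with the minimum of 200, at pseudocounts of 1 and 64, after quantile normalisation, on the linear Signal, with line means, with line as a random block, at a threshold of 0.01, and without the lowest female arrays of L1 and H2 together (0 to 1 with single arrays or lines left out). H minus C had 2 calls, with 1 without a filter, 7 on the linear Signal, 1 with labels exchanged, 0 with line means, 0 with a random block, 1 at 0.01 and 0 to 3 with arrays or lines left out. L minus C had 2, with 1 under one median, 0 with line means, 0 with a random block, 0 at 0.01, 1 without the lowest female arrays of L1 and H2 and 0 to 4 with arrays or lines left out. The sex difference of H minus C had 0 calls and 1 on the linear Signal. Of the called values RpL37-2 turned, with H minus C at -0.26, at 0.21 without line C1 and at -0.73 without line C2; of the sex differences not called, those of RpL37A and RpL41 turned after quantile normalisation. Both settings that leave out 2 arrays together were chosen after seeing the data. The causes were not tested. By the labels same-numbered replicates had only a number in common, and the replicate block moved only the count for line past 1.5 times. Other probe sets of the paired genes could not be tried, since none of these genes has a second one. Signals near the floor, as of RpL10Aa, RpS10a and RpS28-like in females, limit fold changes and calls.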
